A study of Mus musculus with 17 samples.

Results

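Insulin release from pancreatic β cells depends on calcium entry through voltage-gated channels, and the 10 genes described here encode parts of those channels and the small GTPases that restrain them. They were chosen by gene symbol as 4 pore-forming subunits (*Cacna1a*, *Cacna1c*, *Cacna1d* and *Cacna1h*), 3 auxiliary subunits (*Cacna2d1*, *Cacnb2* and *Cacnb3*) and 3 RGK GTPases (*Rem2*, *Gem* and *Rrad*). They are 10 of the 55357 genes in the files, and all 10 were among the 22784 genes that passed the filter on low counts.

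When glucose metabolism closes ATP-sensitive potassium channels, the β cell membrane depolarizes and voltage-gated calcium channels open, and the calcium that enters triggers exocytosis of insulin granules. Each channel has an α1 pore subunit, which sets the channel type. In high-voltage-activated channels, a cytoplasmic β subunit and an extracellular α2δ subunit bring the pore to the membrane and tune its gating. RGK proteins are small GTPases of the Ras superfamily that bind β subunits and inhibit high-voltage-activated calcium channels.

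The libraries came from β cells of male mice on a C57BL/6 background that carried the RIP-Cre transgene, in which the rat insulin promoter drives Cre recombinase, and a *Rosa26* tdTomato reporter that Cre switches on. Control mice carried these alleles alone and are labelled WT, and *Pcbp2*βKO mice were in addition homozygous for a floxed *Pcbp2* allele. *Pcbp2* encodes a poly(C)-binding protein that regulates messenger RNA. Isolated islets were held for 72 hours in 2.8 mM (low) or 16.7 mM (high) glucose, and living tdTomato+ cells were then sorted into 3 control libraries in low glucose, 4 control libraries in high glucose and 5 *Pcbp2*βKO libraries in each concentration. The reporter marks every cell in which Cre has acted, whichever cell type it is. The age of the mice is not given for this experiment, nor how many animals stand behind a library, so the p-values below measure the spread between these libraries, which may be partly technical.

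*Pcbp2* itself, read in CPM, the counts of a gene relative to the library's total, after scaling of the libraries to one another, stood at 63.4, 73.4 and 50.7 CPM in control libraries at 2.8 mM and between 35.0 and 45.4 CPM in the 4 at 16.7 mM. The *Pcbp2*βKO libraries held 15.5 to 19.2 CPM in low glucose and 5.81 to 10.03 CPM in high glucose, so no knockout library overlapped a control library. The total estimated count per library ranged from 47385513 to 82419400. On the first principal component of log2 CPM, which held 32.5% of the variance, 3 libraries in high glucose stood apart. These were replicate 4 in control cells, with a score of 10.1 where the other 3 had 82.6 to 87.6, and 2 *Pcbp2*βKO libraries, replicates 4 and 5, with 15.2 and 12.9 where the other 3 had 78.3 to 81.5, while libraries in low glucose scored between -89.1 and -36.6. All 8 β cell markers looked up were detected, and their summed level had a median of 117920 CPM in control cells in low glucose, 407518 CPM in control cells in high glucose, 70724 CPM in *Pcbp2*βKO cells in low glucose and 403876 CPM in *Pcbp2*βKO cells in high glucose. *Ins2*, an insulin gene, took 8.90% to 9.04% of the estimated counts of control libraries in low glucose and 18.2% to 25.7% in high glucose, and 4.92% to 10.4% and 20.7% to 24.7% in *Pcbp2*βKO libraries.

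In the main fit, *Rem2* and *Gem* were the genes called with glucose. In high glucose, *Rem2* rose 7.60-fold in control and 7.34-fold in *Pcbp2*βKO cells and *Gem* 2.81-fold and 2.31-fold. None of the 7 channel subunits was called in any comparison of that fit. Only *Rem2* kept its calls under every alternative, and *Gem* lost them in both genotypes when libraries were scaled by total counts. On a scale that divides by transcript length, *Cacna1d*, *Cacna2d1*, *Cacnb2* and *Cacnb3* were called lower in both genotypes. A gene was called where edgeR's quasi-likelihood test gave a Benjamini-Hochberg adjusted p under 0.05 over all genes tested and the fold change exceeded 1.5. By this rule, 2 of the 10 genes were called for glucose in control cells, where 13.8% of all genes were called, and 2 of the 10 for glucose in *Pcbp2*βKO cells, where 23.8% of all genes were called. Both rose in each genotype, and of all genes 7.15% were called higher and 6.69% lower in control cells and 13.4% and 10.4% in *Pcbp2*βKO cells. The groups did not overlap in 4 of the 10 genes in control cells (*Rem2*, *Gem* and *Cacna1c* higher, *Cacnb2* lower) and in 1 of the 10, *Rem2*, in *Pcbp2*βKO cells, against 24.1% and 21.6% of all genes. With the replicate number as a block, 5024 rather than 3153 genes were called for glucose in control cells, and 3 rather than 2 of the 10, with the channel subunit *Cacnb3* called lower (-0.63, adjusted p = 0.00573 by edgeR). In that fit replicate 4 in high glucose, which has no same-numbered partner, had a term of its own and did not enter the estimated difference. Leaving out that library alone, without a block, gave 4480 calls.

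**Figure D1:**
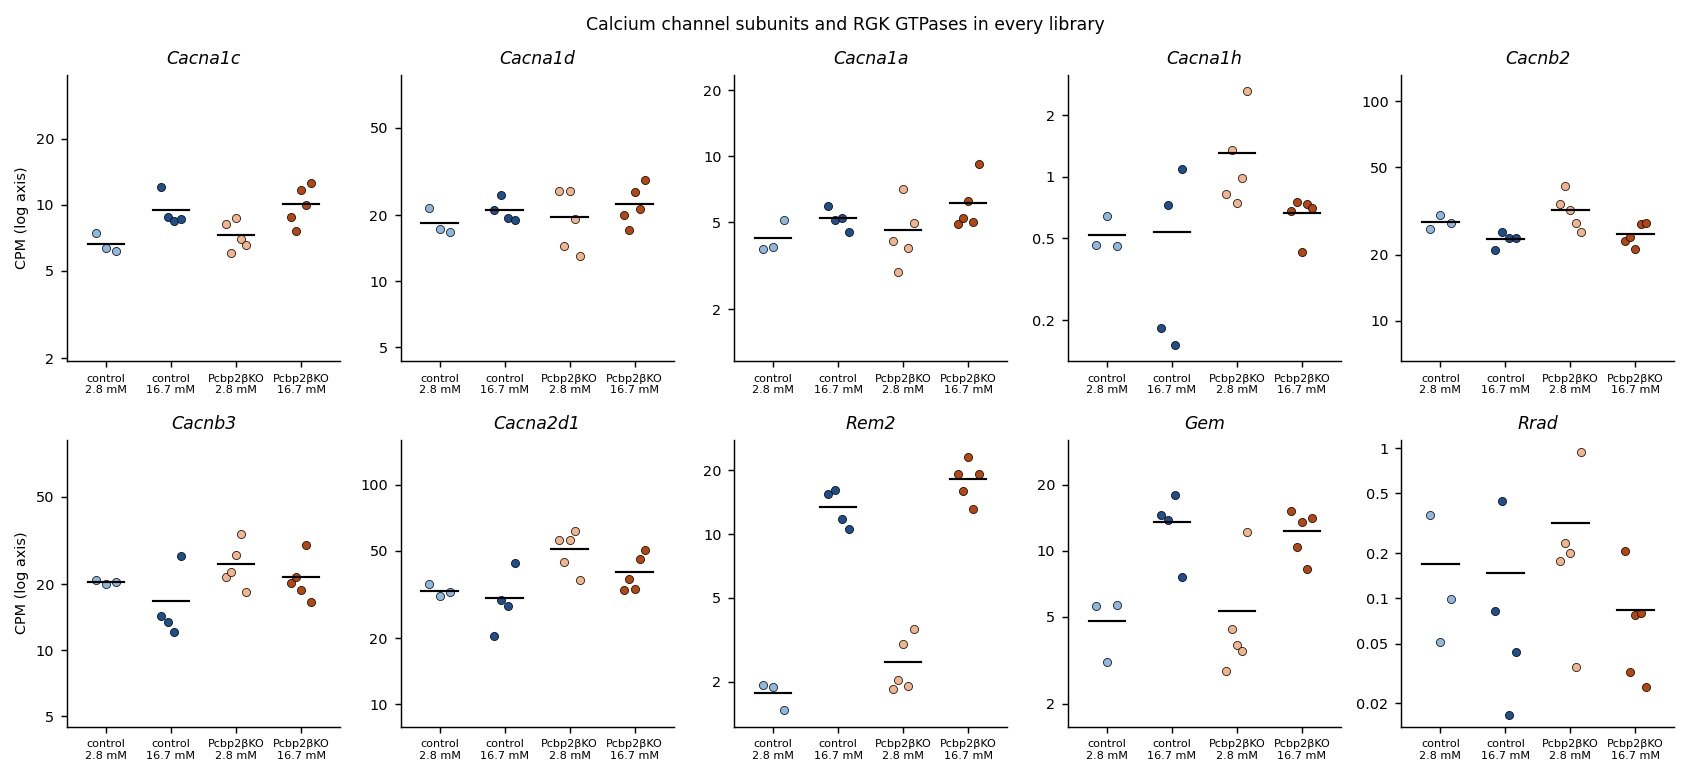
CPM of the 10 genes on log axes, 1 point per library, in control and *Pcbp2*βKO cells at 2.8 and 16.7 mM glucose, with group means as bars. *Rem2* is the only gene whose high-glucose libraries lie above all low-glucose libraries in both genotypes, and replicate 5 of the *Pcbp2*βKO cells in low glucose stands high in the *Gem*, *Rrad* and *Cacna1h* panels. That library was also the highest of its group in the summed PP cell, delta cell, macrophage and β cell markers. Its β cell sum was mostly *Ins2*, and the β cell markers *Iapp*, *Slc2a2*, *Nkx6-1* and *Ucn3* had their lowest estimated counts of the group there.

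*Rem2* encodes the RGK GTPase best known from neurons and insulin-secreting cells. The gene lies on chr14:54713557-54717892, plus strand, of GRCm39, the build of the files. Its promoter is shown because it is the gene with the largest change, with the RefSeq window of 250 bases before to 50 after the start given in GRCm38.p6 at chr14:54475850-54476149, plus strand. The capitals mark matches to the motifs searched on both strands.

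Rem2 promoter: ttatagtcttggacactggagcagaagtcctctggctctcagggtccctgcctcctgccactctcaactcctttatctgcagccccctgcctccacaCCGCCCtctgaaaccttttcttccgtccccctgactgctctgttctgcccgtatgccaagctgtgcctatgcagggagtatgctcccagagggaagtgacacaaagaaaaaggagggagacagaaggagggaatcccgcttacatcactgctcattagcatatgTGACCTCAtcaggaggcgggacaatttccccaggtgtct

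The first match, 153 bases before the start, is a GC box (GGGCGG, here on the minus strand), which 35.7% of the 32851 promoters in the table hold. The second, from position 12 after the start, is a cAMP response element with its middle base left free (TGACNTCA), which 8.83% of all promoters hold. The exact cAMP response element (TGACGTCA) and the E-box CACGTG are in 1.79% and 7.15% of all promoters, and these letters are not in the *Rem2* window or in any of the 11 windows of the 6 genes that are in the table. These are *Cacna1c*, *Cacna1d*, *Cacna2d1*, *Cacnb2*, *Cacnb3* and *Rem2*, and each of the 6 has a GC box in at least 1 of its windows.

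In control cells, *Rem2* stood at 1.93, 1.89 and 1.48 CPM in low glucose and at 15.4, 16.1, 11.8 and 10.5 CPM in high glucose. The knockout libraries held 1.84, 2.05, 3.02, 1.91 and 3.55 CPM in low glucose and 19.3, 16.04, 23.2, 13.2 and 19.2 CPM in high glucose. In each genotype every library in high glucose was above every library in low glucose, and the lowest value of each high-glucose group came from a replicate 4, a library that stood apart. The log2 fold change with glucose was 2.93 in control cells (standard error 0.28, adjusted p = 5.81e-05 by edgeR) and 2.88 in *Pcbp2*βKO cells (standard error 0.22, adjusted p = 5.96e-07 by edgeR), and without the 3 libraries that stood apart it was 3.01 and 2.94. The median of all genes was 0.04 and 0.01 in these comparisons. *Rem2* also remained called with libraries scaled by total counts, with DESeq2 and with limma on TPM, a measure that also accounts for transcript length.

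*Gem* encodes an RGK GTPase that was described as a gene induced by mitogens in lymphocytes and that lies on chr4:11704343-11714993, plus strand. In control cells, it stood at 5.60, 3.11 and 5.63 CPM in low glucose and at 14.5, 13.7, 17.9 and 7.57 CPM in high glucose, so the groups did not overlap. In *Pcbp2*βKO cells, it stood at 2.81, 4.38, 3.72, 3.47 and 12.2 CPM in low glucose and at 15.2, 10.3, 13.5, 8.23 and 14.1 CPM in high glucose. Here the groups overlapped through replicate 5 in low glucose alone, the library with 12.2 CPM. The log2 fold change was 1.49 in control cells (standard error 0.44, adjusted p = 0.0284 by edgeR) and 1.21 in *Pcbp2*βKO cells (standard error 0.35, adjusted p = 0.0149 by edgeR).

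The *Gem* call in control cells was lost when any 1 control library other than replicate 4 in high glucose was left out, with adjusted p from 0.0536 to 0.144 by edgeR. With the replicate block, the log2 fold change was 1.73 and the adjusted p 0.00325 by edgeR. Without replicate 4 in high glucose, which the block also sets aside, it was 1.70 (adjusted p = 0.0107 by edgeR). The *Gem* log2 fold change in *Pcbp2*βKO cells was 1.77 without replicate 5 in low glucose. With libraries scaled by total counts alone, *Gem* was not called in either genotype (log2 fold changes 1.07 and 0.72, adjusted p = 0.0776 and 0.107 by edgeR). On the log2(TPM + 0.1) scale it was not called either (0.66 and 0.36, adjusted p = 0.158 and 0.306 by limma). The median of all genes lay at -0.35 and -0.47 under total counts and at -0.56 and -0.71 on the TPM scale in the same comparisons, and the direction for *Gem* did not change.

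*Rrad* encodes the RGK GTPase known from heart and skeletal muscle, and lies on chr8:105354695-105357990, minus strand. It was close to the detection limit, with 1 to 95 estimated counts per library. The highest values were 0.949 CPM in replicate 5 of the *Pcbp2*βKO cells in low glucose and 0.445 CPM in a control library in high glucose, and the lowest was 0.0168 CPM in another control library in high glucose. Its log2 fold change with glucose was -0.22 (standard error 1.03) in control cells and -1.95 (standard error 0.88, adjusted p = 0.107 by edgeR) in *Pcbp2*βKO cells. The second value rests largely on replicate 5 in low glucose. With 1 library left out it ranged from -2.55 to -0.98, and -0.98 (adjusted p = 0.44 by edgeR) was the value without that replicate, whereas total counts and limma on log2(TPM + 0.1) called *Rrad* lower with all libraries. Replicate 5 was also the highest of the 5 libraries in the summed PP cell markers (7425 against 1431 to 3670 CPM), delta cell markers (1316 against 480 to 1203 CPM), macrophage markers (23.2 against 6.66 to 15.2 CPM) and β cell markers (96867 against 66585 to 92297 CPM), and lay within the range of the other 4 for the alpha, acinar, ductal, endothelial and stellate cell markers. Its β cell sum was mostly *Ins2*, and single β cell markers went different ways. In estimated counts, *Ins2* (8535996 against 2331120 to 5153066) and *Ins1* were the highest of the group in replicate 5. *Iapp* (968195 against 1399370 to 2911974), *Slc2a2*, *Nkx6-1* and *Ucn3* were the lowest, and *Mafa* and *Pdx1* lay within the range of the others. The part of these cell types in the *Gem*, *Rrad* and *Cacna1h* values of replicate 5 was not tested. *Rem1*, the fourth RGK gene, had no count in any of the 17 libraries.

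*Cacna1d* encodes CaV1.3, an L-type pore, on chr14:29761896-30213412, minus strand. On TMM-scaled CPM its groups overlapped in every comparison. It stood at 21.5, 17.2 and 16.7 CPM in low glucose and at 21.1, 24.6, 19.5 and 19.0 CPM in high glucose in control cells. In *Pcbp2*βKO cells it ranged from 13.04 to 25.7 CPM in low glucose and from 17.1 to 28.9 CPM in high glucose. Its log2 fold changes with glucose were 0.19 (standard error 0.23) and 0.20 (standard error 0.19) in the 2 genotypes, with adjusted p = 0.655 and 0.474 by edgeR. The direction depended on the scale, with -0.21 and -0.27 under total counts and -0.78 and -0.72 on the log2(TPM + 0.1) scale, where *Cacna1d* was called lower (adjusted p = 0.0489 and 0.0201 by limma).

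*Cacna1c* encodes CaV1.2, the L-type pore that the mouse β cell shares with heart and smooth muscle, on chr6:118564201-119173851, minus strand. In control cells, it stood at 7.42, 6.37 and 6.16 CPM in low glucose and at 12.0, 8.80, 8.47 and 8.64 CPM in high glucose, without overlap. *Pcbp2*βKO libraries had 8.13, 6.05, 8.71, 7.01 and 6.52 CPM in low glucose and 8.76, 7.63, 11.7, 9.97 and 12.5 CPM in high glucose, and these ranges overlapped. The log2 fold change was 0.51 in control cells (standard error 0.21, adjusted p = 0.102 by edgeR) and 0.47 in *Pcbp2*βKO cells (standard error 0.17, adjusted p = 0.0414 by edgeR). The second passed the adjusted p but its 1.39-fold change was under 1.5, so it was not called, and on the log2(TPM + 0.1) scale both values were below 0 (-0.09 and -0.57).

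*Cacna1a*, on chr8:85065224-85367997, plus strand, encodes the P/Q-type pore CaV2.1, and *Cacna1h*, on chr17:25593259-25652764, minus strand, the T-type pore CaV3.2, which opens at low voltage. *Cacna1a* ranged from 2.96 to 9.25 CPM over the 17 libraries and its groups overlapped in all 4 comparisons, with log2 fold changes with glucose of 0.29 (standard error 0.28) and 0.42 (standard error 0.23). *Cacna1h* was low, with 9 to 263 estimated counts per library. It stood at 0.463, 0.645 and 0.459 CPM in control cells in low glucose, at 0.184, 0.730, 0.151 and 1.09 CPM in control cells in high glucose, and at 0.827, 1.35, 0.742, 0.989 and 2.63 CPM in *Pcbp2*βKO cells in low glucose. In *Pcbp2*βKO cells in high glucose it stood at 0.684, 0.754, 0.431, 0.737 and 0.707 CPM. Its log2 fold change with glucose was 0.05 (standard error 0.57) in control cells and -0.98 (standard error 0.46, adjusted p = 0.123 by edgeR) in *Pcbp2*βKO cells, where it was -0.56 without replicate 5 in low glucose.

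*Cacnb2*, on chr2:14607899-14994127, plus strand, encodes a β subunit, a class that both carries the pore to the membrane and forms the docking site of RGK proteins. In control cells, it stood at 26.1, 30.4 and 27.9 CPM in low glucose and at 21.0, 25.4, 23.9 and 23.7 CPM in high glucose, with every high-glucose library below every low-glucose one. The knockout libraries had 34.2, 41.0, 32.0, 27.8 and 25.4 CPM in low glucose and 23.0, 24.1, 21.2, 27.7 and 27.9 CPM in high glucose, with overlap. The log2 fold change was -0.26 (standard error 0.16, adjusted p = 0.291 by edgeR) and -0.37 (standard error 0.13, adjusted p = 0.0366 by edgeR), and the second, a ratio of 0.773, was short of the fold threshold.

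*Cacnb3*, on chr15:98528721-98542417, plus strand, encodes a further β subunit. It stood at 20.9, 19.99 and 20.4 CPM in control cells in low glucose and at 14.3, 13.4, 12.1 and 26.9 CPM in high glucose. The 3 lower values and the highest value, which came from the library that stood apart, thus lay on either side of the low-glucose libraries. The log2 fold change was -0.29 (standard error 0.26, adjusted p = 0.502 by edgeR). It was -0.63 with the replicate block (adjusted p = 0.00573 by edgeR) and -0.64 without the 3 libraries that stood apart (adjusted p = 0.0218 by edgeR), and *Cacnb3* was called in both. Both fits set aside the library with 26.9 CPM, so these calls are not independent of each other. With 1 library left out and no block, the log2 fold change ranged from -0.61 to -0.17, and no adjusted p was below 0.0565 by edgeR. In *Pcbp2*βKO cells, *Cacnb3* ranged from 18.4 to 33.8 CPM in low and from 16.6 to 30.2 CPM in high glucose.

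*Cacna2d1*, on chr5:16139372-16579509, plus strand, encodes the α2δ-1 subunit, which is also the receptor of gabapentin. It stood at 35.3, 31.1 and 32.4 CPM in control cells in low glucose and at 20.5, 29.9, 27.97 and 44.0 CPM in high glucose, with the highest value again in replicate 4. Its *Pcbp2*βKO values were 56.2, 44.3, 56.0, 61.7 and 36.6 CPM in low glucose and 33.3, 37.1, 33.4, 46.0 and 50.4 CPM in high glucose. The log2 fold change with glucose was -0.11 (standard error 0.22) in control cells and -0.35 (standard error 0.19, adjusted p = 0.176 by edgeR) in *Pcbp2*βKO cells. Without the 3 libraries that stood apart, the second was -0.60 and *Cacna2d1* was called lower (adjusted p = 0.0125 by edgeR).

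The choice of scale matters for the channel subunits. With TMM scaling, 1629 genes were called higher and 1524 lower for glucose in control cells, and 3056 and 2375 in *Pcbp2*βKO cells. With total counts alone, these counts were 782 and 4055, and 1482 and 6369, and on the log2(TPM + 0.1) scale they were 442 and 8460, and 656 and 11793. On that TPM scale *Cacnb2* (-0.89 and -1.23), *Cacnb3* (-1.11 and -1.16), *Cacna2d1* (-1.13 and -1.55) and *Cacna1d* (-0.78 and -0.72) were called lower in high glucose in both genotypes, and *Rem2* (1.99 and 1.82) was still called higher. All genes had medians of -0.56 and -0.71 on the same scale.

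**Figure D2:**
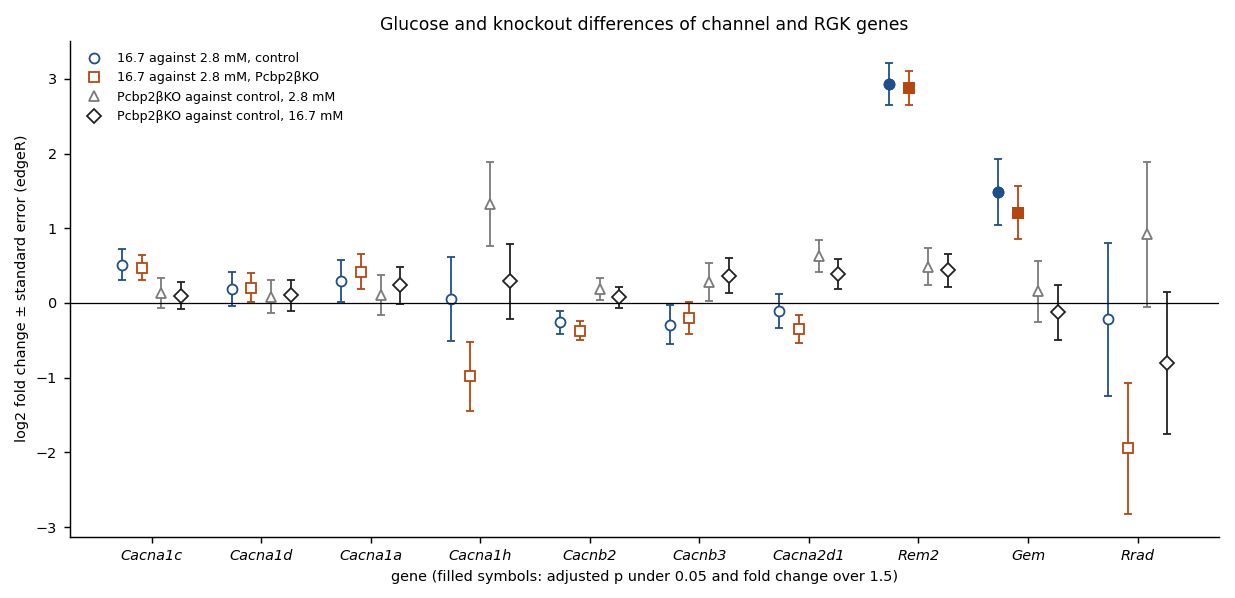
Log2 fold change (vertical axis) with its standard error for the 10 genes in 4 comparisons, from edgeR on TMM-scaled counts, with filled symbols for called genes. The only filled symbols are the glucose differences of *Rem2*, near 2.9, and of *Gem*, between 1.21 and 1.49.

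The loss of *Pcbp2* was compared at each glucose concentration. None of the 10 genes was called in low glucose, where edgeR called 2.04% of all genes (0.255% higher and 1.78% lower), and none in high glucose, where it called 1.71% (0.29% higher and 1.42% lower). At an unadjusted p under 0.05, edgeR gave 2 of the 10 in low glucose and 0 in high glucose, and DESeq2 called 0 in both. The 2 genes were *Cacna2d1* and *Cacna1h*, and they were also the 2 whose *Pcbp2*βKO libraries all lay above the control libraries in low glucose, where 10.9% of all genes did not overlap. In high glucose the groups overlapped in all 10 genes, and 4.49% of all genes did not overlap. For *Cacna2d1* the log2 difference was 0.63 (standard error 0.22, adjusted p = 0.185 by edgeR) in low and 0.39 (standard error 0.20, adjusted p = 0.466) in high glucose. *Cacna1h* had 1.32 (standard error 0.56, adjusted p = 0.307 by edgeR) and 0.29 (standard error 0.50, adjusted p = 0.891). *Rem2* had 0.49 (standard error 0.25, adjusted p = 0.434 by edgeR) and 0.44 (standard error 0.22, adjusted p = 0.455), and *Gem* 0.16 (standard error 0.41, adjusted p = 0.928) and -0.13 (standard error 0.37, adjusted p = 0.942). The other 6 genes lay between 0.08 and 0.92 in low and between -0.81 and 0.36 in high glucose.

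Whether the response to glucose differed between the genotypes was tested as an interaction. None of the 10 genes passed, 0 had an unadjusted p under 0.05, and DESeq2 called 0, while edgeR called 0.00439% of all genes, a single gene, *Ins1*. The difference between the *Rem2* responses was -0.05 on the log2 scale (standard error 0.33), and that between the *Gem* responses -0.28 (standard error 0.55). In simulated data of this design, 41% of genes given a log2 interaction of 2 were called and 9% of those given 1, so smaller differences would mostly not be detectable with these libraries.

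TPM, which divides by transcript length, allows levels to be compared between genes. Averaged over the 4 group means, the order was *Cacnb2* at 7.57 TPM, *Cacnb3* at 7.10, *Cacna2d1* at 6.12, *Cacna1d* at 4.44, *Rem2* at 3.19, *Gem* at 3.13, *Cacna1a* at 1.85, *Cacna1c* at 1.30, *Cacna1h* at 0.159 and *Rrad* at 0.104 TPM. Not all neighbours in this order were apart. *Cacna1d* exceeded *Rem2* in 8 of 17 libraries, *Rem2* exceeded *Gem* in 9 of 17, and each of the 3 leading genes exceeded the next in 12 or 13 of 17. *Cacna1c* exceeded *Cacna1h* in 17 of 17. The place of *Rem2* changed with glucose. In control cells it averaged 1.03 TPM against 5.45 TPM for *Cacna1d* in low glucose and 4.38 against 3.10 TPM in high glucose, and in *Pcbp2*βKO cells 1.60 against 5.82 and 5.76 against 3.40 TPM. These levels count all transcript models of a gene. In the group means, models with a coding sequence held 24.7% to 29.9% of *Cacna1d* TPM and 91.9% to 95.4% of *Rem2* TPM.

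Ratios of TPM within a library do not depend on scaling between libraries. The log2 ratio of RGK transcripts (*Rem1*, *Rem2*, *Rrad* and *Gem*) to high-voltage-activated pore transcripts (*Cacna1a* to *Cacna1e*) was -1.30, -1.49 and -1.25 in control cells in low glucose and 0.69, 0.56, 0.82 and 0.04 in high glucose. The knockout ratios were -1.92, -1.04, -1.82, -1.37 and 0.17 in low glucose and 1.22, 0.69, 0.51, 0.07 and 0.25 in high glucose. Every high-glucose library was above every low-glucose library in control cells, and in *Pcbp2*βKO cells all but replicate 5 in low glucose, which lay within the high-glucose range. The means differed by 1.87 in control cells (two-sided exact permutation p = 0.0286, the smallest that 3 against 4 allows) and by 1.74 in *Pcbp2*βKO cells (exact permutation p = 0.0159). After Benjamini-Hochberg adjustment over the 16 tests of 4 such ratios, neither passed, with exact permutation values of 0.114 and 0.0847. The smallest exact permutation p that the group sizes allow is 0.0286 in control and 0.00794 in *Pcbp2*βKO cells. No single ratio could pass this adjustment on its own at such sizes, so the adjusted values cannot decide whether the ratio changed.

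*Rem2* made up 28.4%, 39.3% and 22.4% of RGK transcripts in control cells in low glucose and 54.3%, 56.1%, 42.4% and 60.5% in high glucose. For *Pcbp2*βKO cells these shares were 40.8%, 33.5%, 48.5%, 37.4% and 23.1% in low glucose and 61.0%, 63.3%, 66.8%, 64.2% and 60.0% in high glucose. The groups did not overlap in either genotype. The mean rose by 23.3 percentage points in control cells (exact permutation p = 0.0571, adjusted 0.152) and by 26.4 in *Pcbp2*βKO cells (exact permutation p = 0.00794, adjusted 0.0847). Neither passed after adjustment, which at these group sizes no single ratio could do on its own. In high glucose, the mean was 63.1% ± 2.67 in *Pcbp2*βKO cells (SD, n = 5) and 53.3% ± 7.71 in control cells (SD, n = 4), a difference with an exact permutation p = 0.0159 and an adjusted value of 0.0847.

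Among the channel transcripts, the *Cacna1d* share of TPM was highest in control cells in low glucose, by a narrow margin that was lost in estimated counts. *Cacna1d* made up 81.6% ± 2.11 of the L-type pore transcripts (*Cacna1c* and *Cacna1d*) in control cells in low glucose (SD, n = 3) and 73.0% ± 5.15 in high glucose (SD, n = 4), with an exact permutation p = 0.0857 and an adjusted 0.196. Its share of TPM was 84.1%, 80.6% and 80.2% in the 3 control libraries in low glucose and between 68.2% and 79.0% in the other 14 libraries. In estimated counts these groups overlapped. The highest share was then in a *Pcbp2*βKO library in low glucose, with 2297 counts of *Cacna1d* and 728 of *Cacna1c*. In TPM, *Cacna1d* made up 76.9% ± 3.14 in *Pcbp2*βKO cells in low glucose (SD, n = 5), below control cells by an unadjusted exact permutation p = 0.0357 and an adjusted 0.114, and 75.3% ± 2.97 in high glucose (SD, n = 5). *Cacnb2* held between 47.1% and 52.1% of the β subunit transcripts (*Cacnb1* to *Cacnb4*) in the group means, and no unadjusted exact permutation p was below 0.230. These shares, and the RGK to pore ratios above, count all transcript models of a gene. For *Cacna1d* and *Cacna1a*, most of the TPM in every group was on models without a coding sequence. In the group means, the coding models held 24.7% to 29.9% of *Cacna1d* and 13.4% to 16.9% of *Cacna1a*, against 91.9% to 95.4% of *Rem2*. For *Cacna1h* the coding models held 57.7% and 28.9% in control cells and 53.5% and 42.8% in *Pcbp2*βKO cells in low and high glucose, so most of its TPM in high glucose was on models without a coding sequence as well. Because TPM gives short models more weight, this depends on the unit, and the *Cacna1a* coding model Cacna1a-213, of 8370 bases, held 55.4% of the gene's estimated counts but 13.6% of its TPM in control cells in low glucose.

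**Figure D3:**
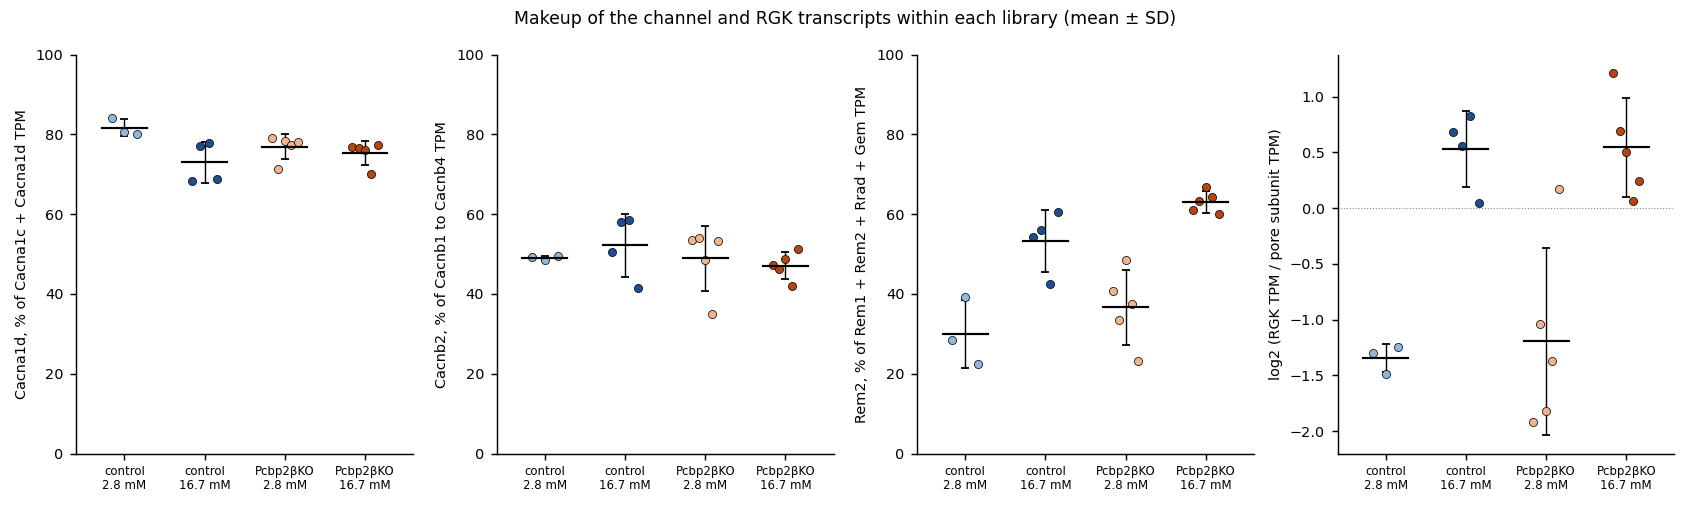
Share of *Cacna1d* in L-type pore TPM, of *Cacnb2* in β subunit TPM and of *Rem2* in RGK TPM (percent axes from 0 to 100), and the log2 ratio of RGK to pore subunit TPM, with 1 point per library and the mean ± SD of each group. The *Rem2* share lies between 22.4% and 48.5% in the low-glucose libraries and between 42.4% and 66.8% in the high-glucose libraries, while the *Cacnb2* shares of the 4 groups overlap. The *Cacna1d* shares of control cells in low glucose, 80.2% to 84.1%, lie above those of all other libraries, of which the highest has 79.0%. In estimated counts, which are not drawn, these shares overlap.

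*Gem* has 2 transcript models, both protein-coding, which differ in their first exon. Gem-202 begins with a first exon of 218 bases, and Gem-201 begins 1458 bases further downstream, with 98 bases of its own before the second exon of Gem-202. Gem-201 held 37.1%, 0% and 14.0% of *Gem* TPM in control cells in low glucose and 41.5%, 54.0%, 49.3% and 65.8% in high glucose. The *Pcbp2*βKO libraries had 0%, 22.9%, 39.9%, 45.0% and 31.6% in low glucose and 46.7%, 40.6%, 54.3%, 58.2% and 55.5% in high glucose. The share was higher in every high-glucose library than in every low-glucose library of control cells, and the ranges overlapped in *Pcbp2*βKO cells. Group means of Gem-202 were 1.96 and 1.86 TPM in control cells and 1.99 and 1.64 TPM in *Pcbp2*βKO cells in low and high glucose, while those of Gem-201 were 0.487 and 2.00, and 0.860 and 1.71 TPM. The even level of Gem-202 holds on the TPM scale alone. As TMM-scaled CPM, a scale added after the data were seen, Gem-202 had means of 3.83 and 6.65 in control cells and 3.74 and 6.05 in *Pcbp2*βKO cells, ratios of 1.74 and 1.62, and Gem-201 had ratios of 7.13 and 3.96. On both scales the ratio of Gem-201 was above that of Gem-202. The division rests on reads from these short 5′ stretches and is an estimate of the authors' quantification, so these shares are given as a description without a test. *Rem2* was carried by 1 model, Rem2-202, with 88.0% to 93.0% of its TPM in the group means.

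**Figure D4:**
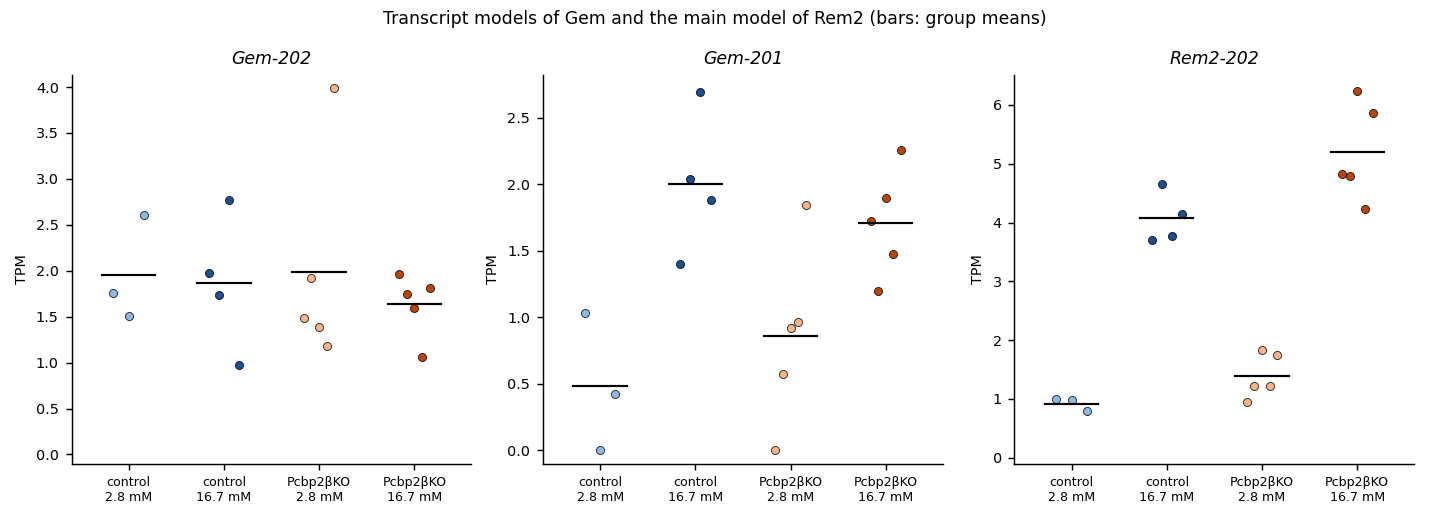
TPM of both *Gem* transcript models and of the main *Rem2* model in every library, with group means as bars and linear axes. Gem-202 has group means between 1.64 and 1.99 TPM in all 4 groups, whereas Gem-201 and Rem2-202 have higher means in high glucose in both genotypes. On TMM-scaled CPM, which is not drawn, the Gem-202 means were also higher in high glucose, 1.74-fold and 1.62-fold.

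The genes with the most similar pattern to *Rem2* over the 17 libraries, by the root mean square difference of log2 CPM centred on each gene's mean, were *H1f4* (0.44), a linker histone, *Nphp4* (0.46), a protein of the primary cilium, and *Mrln* (0.47), a micropeptide that inhibits the SERCA calcium pump in muscle. The SD of *Rem2* on that scale was 1.47, and the 10013 genes compared were those averaging 5 CPM or more. Those most like *Gem*, whose SD was 0.88, were *Trib1* (0.34), a pseudokinase, *Btg2* (0.35), an antiproliferative gene, and *Gadd45g* (0.36), a stress-response gene. Since all 6 were chosen from these libraries for their likeness, no test applies.

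Other genes around the channel were counted from 3 lists. Of 20 further channel subunit and RGK genes, 14 were tested, and 1 (7.14%) was called, higher in high glucose in both genotypes, against 13.8% and 23.8% of all genes. This was *Cacna1f*, an L-type pore known from retina, at 0.210 ± 0.0467 CPM in control cells in low glucose (SD, n = 3) and 1.02 ± 0.103 CPM in high glucose (SD, n = 4), with log2 fold changes of 2.28 in control and 2.03 in *Pcbp2*βKO cells. With the replicate block, *Cacna1f* was not called in control cells (2.32, adjusted p = 0.0593 by edgeR). The list medians were 0.59 and 0.15. *Cacna1e*, the R-type pore, stood below 1 CPM in every library, and *Cacna1b*, the N-type pore, at group means of 0.928 to 1.81 CPM. None of the 14 was called between the genotypes by edgeR, with 4 at an unadjusted p under 0.05 in low glucose and 1 in high glucose.

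Of 24 genes that regulate or anchor the channels, 21 were tested, with list medians of -0.12 in control and -0.19 in *Pcbp2*βKO cells. For glucose in control cells, 4 were called higher and 1 lower, and in *Pcbp2*βKO cells 4 higher and 3 lower. These are 23.8% and 33.3% of the list, beside 13.8% and 23.8% of all genes. *Rimbp2*, which links channels to the release site, had log2 fold changes of 0.998 (standard error 0.24) and 1.30 (standard error 0.20). *Rims1*, another release-site scaffold, had 5.52 (standard error 1.35) and 3.35 (standard error 0.94) and varied widely within high glucose. It stood at 4.01, 4.70, 5.91 and 0.264 CPM in control cells and at 3.34, 5.25, 2.73, 0.402 and 0.0771 CPM in *Pcbp2*βKO cells, where the low-glucose libraries had 0.0499 to 0.622 CPM. The 3 lowest of these high-glucose values came from the 3 libraries that stood apart, and without them the log2 fold changes were 5.89 and 3.99. The call in control cells was lost without replicate 1 in low glucose (adjusted p = 0.0545 by edgeR). *Crbn*, a ubiquitin ligase adaptor, fell by 0.75 and by 0.87 on the log2 scale. *Cabp1*, a calcium-binding protein, was called higher in control cells (1.06), and *Nedd4l*, a ubiquitin ligase (-0.72), and *Ppp3ca*, a calcineurin subunit (-1.003), lower in *Pcbp2*βKO cells, and the test of the interaction called none of these 3 genes. Between the genotypes edgeR called none, with 1 and 2 at an unadjusted p under 0.05 in low and high glucose.

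Of 30 genes of calcium stores and transport, all were tested, with list medians of 0.14 and 0.17. High glucose raised 5 of them in control cells and 7 in *Pcbp2*βKO cells, and lowered none past the test. These are 16.7% and 23.3% of the list, close to the 13.8% and 23.8% of all genes called in either direction, of which 7.15% and 13.4% were called higher. *Atp2a3*, the SERCA3 pump of the endoplasmic reticulum, rose in control cells from a mean of 622 CPM (SD 92.9, n = 3) to one of 1367 CPM (SD 384, n = 4), with log2 fold changes of 1.14 and 1.60 in the 2 genotypes. *Atp2b2*, a plasma membrane pump, had 1.24 and 1.47, *Tmem38a*, a counter-ion channel of the stores, 1.15 and 1.12, and *Casq1*, a calcium-binding store protein, 3.02 and 1.79. *Slc8a3*, a sodium-calcium exchanger, was called in *Pcbp2*βKO cells (2.26). *Casq2*, the cardiac relative of *Casq1*, was the 1 gene of the 3 lists called between the genotypes. It had 8, 27 and 0 estimated counts in control cells in low glucose, 71, 196, 61 and 85 in high glucose, none in the 5 *Pcbp2*βKO libraries in low glucose and 8 to 37 in those in high glucose. Against a floor of 3 counts over that group, *Casq2* was at least 20.9-fold lower in *Pcbp2*βKO than in control cells in low glucose (adjusted p = 0.0286 by edgeR), and the list median of 0.10 in that comparison is the same with *Casq2* at its bound. The bound rests on replicate 2 of the control cells, which held 27 counts, and was 6.59-fold without it. With 1 library left out the call was kept in 4 of 8 fits and lost in the other 4, among them the fit without that replicate, with adjusted p from 0.051 to 0.173 by edgeR. In high glucose *Casq2* stood at 1.02 to 3.49 CPM in control and 0.123 to 0.475 CPM in *Pcbp2*βKO cells, without overlap, but was not called.

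**Figure D5:**
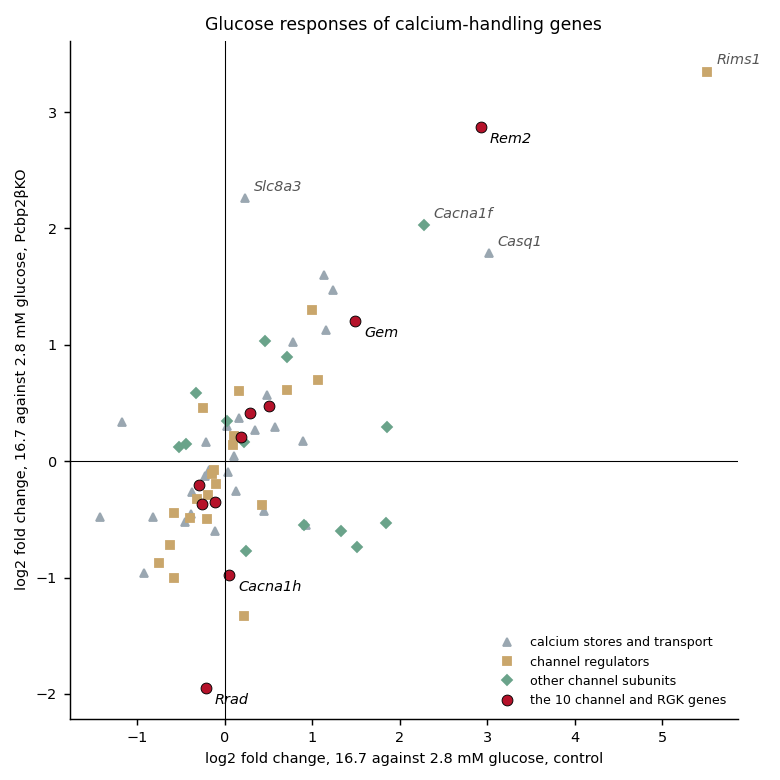
Log2 fold change with glucose in control cells (horizontal axis) and in *Pcbp2*βKO cells (vertical axis) for the 10 channel and RGK genes and the tested genes of the other calcium lists, from edgeR, without *Casq2*, which has no count in 1 group. *Rem2* lies at 2.93 and 2.88 and *Gem* at 1.49 and 1.21. The channel subunits all lie nearer 0 than *Gem* on both axes, with *Cacna1h*, at 0.05 and -0.98, the furthest of them from 0.

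Genes of other cell types moved with glucose as well. Of 6 alpha cell markers, summed levels ranged from 691 to 2624 CPM in control cells in low glucose, from 538 to 1572 CPM in high glucose, from 1570 to 9439 CPM in *Pcbp2*βKO cells in low glucose and from 953 to 1812 CPM in high glucose. These sums mix opposite changes. In control cells, *Gcg*, the glucagon gene, had 54008 to 197250 estimated counts in low and 12727 to 98738 in high glucose. *Ttr*, which β cells also express, had 3919 to 4611 and 7404 to 46392. The median log2 fold change of the alpha cell markers tested was -1.36 in control and -1.32 in *Pcbp2*βKO cells. In *Pcbp2*βKO cells, *Gcg* was called lower in high glucose and *Ttr* higher. The 3 delta cell markers ranged from 251 to 390, 147 to 335, 480 to 1316 and 198 to 566 CPM in the same order of groups, and the 2 PP cell markers from 1111 to 1208, 368 to 999, 1431 to 7425 and 470 to 1456 CPM. The 4 macrophage markers ranged from 7.92 to 15.1, 2.01 to 6.10, 6.66 to 23.2 and 1.22 to 3.46 CPM, and all 4 were called lower in high glucose in *Pcbp2*βKO cells. Medians of these 4 summed levels were lower in high than in low glucose in both genotypes, the opposite direction to *Rem2* and *Gem*. The 3 ductal cell markers had medians of 16.2 and 235 CPM in low and high glucose in control cells and 18.1 and 25.7 CPM in *Pcbp2*βKO cells, and the 4 endothelial cell markers 0.516 and 1.06, and 0.648 and 0.803 CPM, the same direction as *Rem2* and *Gem*. The ductal sum was mostly 1 gene, *Spp1*, with 1208 to 8809 estimated counts in low and 3170 to 44835 in high glucose in control cells. There *Krt19* had 10 to 32 and 4 to 106, and *Sox9* 14 to 53 and 1 to 49. The ductal sums ranged from 14.1 to 114, 47.7 to 800.2, 8.06 to 83.7 and 12.7 to 143 CPM in the order of groups above. The part of these cells in the glucose differences was not tested. In low glucose alpha, delta and PP cell markers were higher in median in *Pcbp2*βKO than in control cells, as were *Cacna2d1* and *Cacna1h*, and their part in those differences was not tested. No acinar, ductal, endothelial or stellate cell marker was called in any comparison, with at most 1 of each list at an unadjusted p under 0.05. *Cpa1*, *Prss2*, *Amy2a1* and *Ctrb1* of the 5 acinar markers, *Cdh5* and *Plvap* of the 4 endothelial markers and *Irx1* of the alpha cell markers did not pass the filter. In sorted cells in bulk, fewer cells of a type and less RNA per cell cannot be told apart.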

How the data were processed

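RNA of sorted tdTomato+ cells had been sequenced as paired-end libraries, and the authors deposited, for each of 17 libraries, estimated counts and TPM per transcript from kallisto (version not given in the sources used here) on the GRCm39 mouse transcriptome. The deposited TPM values were summed per gene without further scaling. The deposited estimated counts were summed per gene, rounded to whole numbers and filtered with filterByExpr, which kept 22784 of 55357 genes, and no value column was left unmapped (0). Libraries were scaled by TMM (factors 0.75 to 1.29) and fitted with edgeR's quasi-likelihood test (edgeR 4.0.16, R 4.3.3) on the 4 group means. Genes were called at a Benjamini-Hochberg adjusted p below 0.05 with a change of more than 1.5-fold. Log2 CPM for the component analysis, the genes of similar pattern and Dixon's test used a prior count of 2. The CPM values printed and plotted have no prior count. The 4 TPM ratios were compared with two-sided exact permutation tests, adjusted over 16 tests. Alternatives were RLE size factors, total counts, no filter, DESeq2 1.42.0, limma 3.58.1 on log2(TPM + 0.1) and log2(TPM + 1), a replicate block, leaving out each library or the 3 that stood apart, and fits of the compared groups alone. Transcript levels as TMM-scaled CPM and the *Casq2* bound without single libraries were added after the data were seen. Figures used Python 3.11.15 and matplotlib 3.10.9.

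The replicate numbers come from the sample titles, which do not say what a number stands for. Between control libraries in low and high glucose, same-numbered libraries deviated together (r = 0.199, 0.123 and 0.258 for the 3 pairs), so the numbers pair these libraries. Between *Pcbp2*βKO libraries in low and high glucose, the same-numbered r were 0.0664, 0.171, 0.105, 0.0746 and 0.193. All lay above those of differently numbered libraries (-0.116 to 0.0445), so the numbers may pair these as well. The fit used throughout has no block. In the fits with a block, a library without a same-numbered partner had a term of its own and did not enter the estimated difference. For glucose in control cells and the interaction, this was replicate 4 of control cells in high glucose. Between genotypes, these were replicates 4 and 5 of *Pcbp2*βKO cells in low glucose and replicate 5 of *Pcbp2*βKO cells in high glucose. For glucose in control cells, the value with the replicate number as a block is given beside each result whose call it changes. For glucose in *Pcbp2*βKO cells, the block changed the call of no member. The study modelled a batch, whose levels are not given in the sources used here, so batch could not be fitted. The members and the other gene lists were chosen with earlier results of these data known. Named were all 10 members, at most 6 called genes per other list and comparison, the 3 genes most like each called member, and transcripts with at least 10% of their gene's TPM. Some genes of the other lists are counted there but not reported here by name. Gene coordinates are from GENCODE vM39 on GRCm39. In simulated counts with 200 changed genes, 57% of genes changed by a log2 of 2 were called for glucose in control cells and 66% in *Pcbp2*βKO cells.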

Additional observations from a re-analysis of the deposited data

Results flagged for a closer look

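Of the 30 sets of values made by a member gene and a group of at least 4 libraries, 2 had a library far from the others by Dixon's test, which chance gives in about 1 in 20 sets. *Cacna1c* was highest in replicate 1 of control cells in high glucose, at 12.0 CPM against 8.47 to 8.80 CPM in the other 3 libraries. *Cacna1h* was lowest in replicate 3 of *Pcbp2*βKO cells in high glucose, at 0.431 CPM against 0.684 to 0.754 CPM in the other 4.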

How the results depend on the processing

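The glucose calls of *Rem2* held under every alternative run, with log2 fold changes of 2.81 to 3.04 in control and 2.77 to 3.04 in *Pcbp2*βKO cells when 1 library was left out. The number of the 10 genes called for glucose in control cells was 2, against 5 and 4 by limma on log2(TPM + 0.1) and log2(TPM + 1), 3 with the replicate block, 3 without the 3 libraries that stood apart, 2 with total counts, which were *Rem2* and *Cacnb2* (-0.64, adjusted p = 0.0208 by edgeR) in place of *Rem2* and *Gem*, and 1 to 2 with 1 library left out, *Gem* being the call lost. In *Pcbp2*βKO cells it was 2, against 6 with total counts, *Gem* not among them, 7 and 5 by limma, and 2 to 3 with 1 library left out. In low glucose 1 gene, *Cacna2d1*, was called between genotypes with the replicate block (0.66, adjusted p = 0.0183 by edgeR). That fit set aside replicates 4 and 5 of the *Pcbp2*βKO cells, which have no same-numbered control library. They hold the highest (61.7 CPM) and the lowest (36.6 CPM) *Cacna2d1* value of their group. Between genotypes in low glucose, the same-numbered libraries had r = 0.0474, 0.244 and 0.12 and were not taken as pairs. The same-numbered r were 0.0664 to 0.193 for glucose in *Pcbp2*βKO cells, above all differently numbered ones, and 0.047 to 0.354 between genotypes in high glucose. The block gave 5783, 725, 848 and 17 calls over all genes for glucose in *Pcbp2*βKO cells, genotype in low and in high glucose and the interaction, and changed no other member's call than those of *Cacnb3* and *Cacna2d1*.

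Over all genes, 3153 calls for glucose in control cells became 4837 with total counts, 8902 and 6975 by limma, 4898 without the 3 libraries and 1382 to 4480 with 1 left out, the lowest without replicate 2 in low glucose. For *Pcbp2*βKO cells, 5431 became 12449 and 8831 by limma. Between genotypes, 464 calls in low glucose became 835 by DESeq2 and 283 on log2(TPM + 1), and 242 to 492 with 1 library left out, and 389 in high glucose became 726 by DESeq2, 190 on log2(TPM + 1), 587 without the 3 libraries, 238 in a fit of these groups alone and 213 to 652 with 1 left out. For the interaction, 1 became 15 without a filter, 34 by DESeq2 and 0 on log2(TPM + 1).

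Of the other calcium genes named, *Atp2a3*, *Atp2b2*, *Cabp1*, *Cacna1f*, *Casq1*, *Casq2*, *Rimbp2*, *Rims1*, *Slc8a3* and *Tmem38a* each lost a glucose call on total counts, on a TPM scale or both in at least 1 genotype, *Crbn* lost its call in control cells without replicate 2 in low glucose and *Rims1* without replicate 1. The *Casq2* call between genotypes was lost on both TPM scales and in 4 of 8 fits with 1 library left out. Among the 10 genes, the directions that turned belonged to comparisons in which the gene was not called. For glucose in control cells, total counts and both TPM scales gave *Cacna1a* -0.11, -0.47 and -0.32, *Cacna1d* -0.21, -0.78 and -0.64, and *Cacna1h* -0.25, -0.11 and -0.0094, the TPM scales gave *Cacna1c* -0.086 and -0.045, the block gave *Cacna1h* -0.84, and without the 3 libraries *Cacna1h* was -0.57 and *Rrad* 0.067. For glucose in *Pcbp2*βKO cells, the same 3 scales gave *Cacna1a* -0.059, -0.47 and -0.33 and *Cacna1d* -0.27, -0.72 and -0.60, and the TPM scales *Cacna1c* -0.57 and -0.35. Between genotypes, the block gave *Gem* -0.37 in low glucose and *Cacna1d* -0.010 and *Rrad* 0.046 in high glucose, where the TPM scales gave *Cacna1c* -0.049 and -0.022 and *Cacnb2* -0.045 and -0.040, and omission of the 3 libraries gave *Cacna1a* -0.00083, *Cacna1c* -0.063, *Cacna1d* -0.061 and *Cacnb2* -0.044. For the interaction, *Cacna1a* was -0.0027 and -0.012 on the TPM scales and -0.12 without the 3 libraries, *Cacna1d* -0.065 with total counts, -0.0038 with the block and -0.16 without the 3 libraries, *Cacna2d1* 0.0021 with the block, and *Cacnb3* -0.050 with total counts and -0.057 and -0.099 on the TPM scales. The difference in *Cacnb2* share between genotypes in low glucose was 0.397 points with estimated counts. Shares of single transcript models moved by more than 1 SD in 75 of 104 cases when taken from estimated counts, but those of Gem-201 did not in any group. The cause of the changes above was not tested.

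With 1 library left out, the interaction ranged from -0.073 to 0.34 for *Cacna1a*, -0.12 to 0.10 for *Cacna1c*, -0.11 to 0.13 for *Cacna1d*, -0.066 to 0.40 for *Cacnb3*, -0.50 to 0.28 for *Gem* and -0.17 to 0.12 for *Rem2*. The glucose difference in control cells ranged from -0.53 to 0.36 for *Cacna1h*, -0.32 to 0.045 for *Cacna2d1* and -1.84 to 0.93 for *Rrad*. Between genotypes in low glucose the ranges were -0.11 to 0.26 for *Cacna1a*, -0.033 to 0.21 for *Cacna1d*, -0.41 to 0.32 for *Gem*, -0.046 to 2.07 for *Rrad*, -0.19 to 0.33 for the RGK ratio and -1.49 to 3.29 points for the *Cacnb2* share, and in high glucose -0.0034 to 0.19 for *Cacna1d*, -0.019 to 0.88 for *Cacna1h*, -0.34 to 0.043 for *Gem*, -1.41 to 0.81 for *Rrad* and -0.15 to 0.14 for the RGK ratio.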
